A study of Mus musculus with 82 samples.

Results

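The genes described here are 54 that serve the unfolded protein response and the secretory pathway. They were taken from a list ordered by role: 13 chaperones and folding factors, 4 disulfide isomerases, 8 genes of endoplasmic reticulum-associated degradation, 5 stress sensors and transcription factors, 10 genes of the translocon and the signal recognition particle, 4 of signal peptidase, 4 of oligosaccharyltransferase and 6 of cargo transport. Of these, 53 were measured, out of 12394 genes on the array. Sec61g, a translocon subunit, was left out because its probe set is shared with other symbols. Each gene is represented by the probe set with the highest mean over the 82 arrays, and all 53 passed the filter on low values.

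RNA came from oil granulomata, the inflamed peritoneal tissue that forms around injected mineral oil and in which mouse plasma cell tumours arise. All mice were of the strain BALB/c.iMycEμ, in which an inserted Myc gene imitates a translocation seen in such tumours, were at least 8 weeks old and had received 0.5 ml of pristane intraperitoneally, so that every group shares the inserted gene and the oil, and no untreated mice were analysed here. Cells that stained with methyl green pyronin, a dye for RNA-rich cells, were cut out by laser and are called captured plasma cells below. Whole sections of granuloma were left undissected, so they hold plasma cells too. Study 2 has captured cells and whole sections at days 7, 17, 33, 49 and 105, with 6 captured and 3 whole arrays of 3 specimens each day. Study 1, an independent cohort, has captured cells at days 7, 17, 33, 46 and 104 (5 arrays of 4, 4, 3, 3 and 1 specimens) and whole sections at days 7, 17, 33 and 104 (3 arrays of 2, 2, 3 and 1 specimens). A specimen is a code in the array titles. Arrays of 1 code and tissue type were averaged, which gave 53 averages from 33 codes, 20 of them with both tissue types. What the codes stand for is not given, so the p-values measure the spread between coded specimens, which may be technical in part.

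Plasma cells devote most of their translation to immunoglobulin, which enters the endoplasmic reticulum through the Sec61 channel, loses its signal peptide, is glycosylated and is folded there. The load is watched by the sensors Ern1 (IRE1), Eif2ak3 (PERK) and Atf6. IRE1 splices the Xbp1 message, PERK slows translation and favours Atf4 and Ddit3 (CHOP), and ATF6 is cut to a transcription factor in the Golgi. Together they raise chaperones such as Hspa5 (BiP) and the machinery that returns misfolded proteins to the cytosol for degradation, in which EDEM proteins mark the glycoproteins and the SEL1L and SYVN1 complex ubiquitinates them.

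Values are log2 intensities, quantile-normalized over all arrays, so a difference is relative to the other genes, and a difference of 1 is a 2-fold one. Tests are from limma with Benjamini-Hochberg adjustment over the 8618 genes that passed the filter, and "rose", "fell", "higher" and "lower" mean an adjusted p under 0.05. In sections of tissue, fewer cells of a type and less RNA per cell cannot be told apart.

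1 array, of captured cells of specimen 2 at day 49 in study 2, stood apart. Its median correlation with the other captured arrays of its study was 0.239, against 0.869 to 0.976 for the other 29. The mean over the 53 genes was 6.36 on it and 10.34 on the second array of the same specimen. Hspa5 read 8.56 on it against 13.44, and Jchain, the antibody joining chain, 7.96 against 12.95. It was kept in the values below, and the counts and the main genes are also given without it. Captured values of its specimen include it and can set the ends of the captured ranges of study 2.

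**Figure D1:**
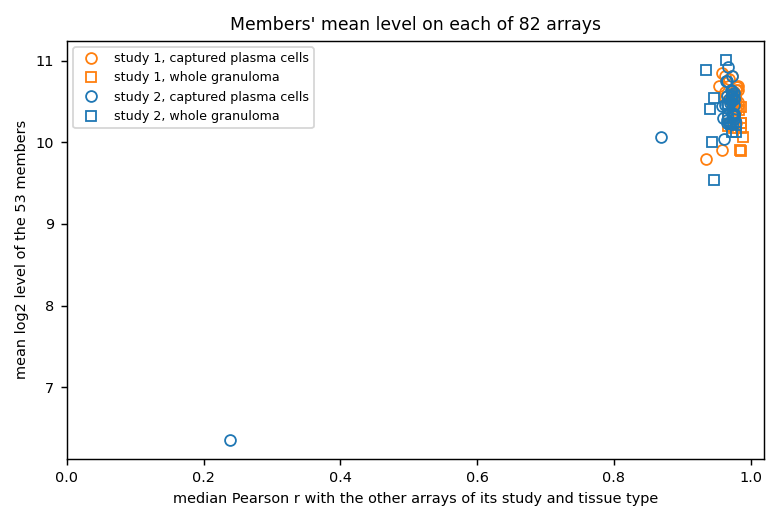
Each point is 1 of the 82 arrays, with its median correlation with the other arrays of the same study and tissue type on the x axis and the mean log2 level of the 53 genes on the y axis. A single captured array of day 49 in study 2 lies far from the rest, at 0.239 and 6.36.

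The captured cells carried plasma cell RNA. Jchain, Xbp1, Sdc1, Slamf7, Prdm1, Irf4 and Pou2af1 were above the array median in every specimen of both tissue types and both studies. Tnfrsf17, the plasma cell survival receptor BCMA, was above it in 13 of 15 captured and 2 of 15 whole specimens of study 2, but in 5 of 15 captured and 0 of 8 whole specimens of study 1. The summed log2 level of 11 plasma cell markers spanned 12.74 to 14.82 in captured cells and 13.37 to 14.81 in whole sections of study 2, and 14.16 to 14.58 against 13.82 to 14.43 in study 1. The 12.74 was at day 49, whose captured group holds the array apart. On the other days of study 2 the captured sums began at 14.03. Smooth muscle markers summed to 8.84 to 11.12 in captured cells and 9.02 to 15.34 in whole sections of study 2. The captured cells were not free of other cell types' RNA. In them 16 macrophage markers summed to 12.62 to 15.11 in study 2 and 12.81 to 15.09 in study 1. For 12 fibroblast markers the captured sums were 12.36 to 15.2 and 13.83 to 15.44. The lowest macrophage and fibroblast sums of study 2 were also at day 49. On its other days these captured sums began at 13.38 and 13.56. Acinar cells of the pancreas, which are also rich in secretory machinery, left a trace: 13 of their markers summed to 14.49 in captured specimen 1 of day 7 in study 2, against 8.83 and 8.97 in the other two, and reached 14.83 in whole sections of study 1.

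The arrays also differed in how far the signal favoured the 3′ ends of transcripts. The difference between 3′ and 5′ control probe sets averaged 4.14 ± 0.79 in captured cells and 1.61 ± 0.13 in whole sections of study 2 (SD, n = 15 each), and the groups did not overlap. In study 1 it averaged 4.47 ± 0.59 (SD, n = 15) in captured cells and 3.16 ± 0.36 (SD, n = 8) in whole sections. Tissue type and amplification therefore cannot be told apart in study 2. The tissue differences are given with this measure in the model after their counts. Within a tissue type of study 2 the means moved less. From day 7 to day 105 the captured means ran 4.66, 4.70, 4.51, 3.37 and 3.46, and the whole means lay between 1.47 and 1.72. The day 49 mean includes the array apart, at 0.46 against 3.78 on the other array of its specimen. Captured specimens of day 7 (4.47 to 4.99) and day 105 (3.22 to 3.79) did not overlap, so day and this measure cannot be told apart between them.

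The regulatory elements of these genes are well known, and those found near the starts of the listed genes are shown so that the values can be read beside them. The endoplasmic reticulum stress element has the letters CCAAT and CCACG with 9 bases between them, is bound by NF-Y at CCAAT and by ATF6 or XBP1 at CCACG, and was searched on both strands of the window from 250 bases before to 50 bases after the gene start (RefSeq, GRCm38.p6). A window was found for 44 of the 54 genes. The element was in 9 of these 44 (20.5%), against 37 of 27025 genes with a window (0.137%) and 39 of all 32851 windows (0.119%). The 10 elements follow, read in the direction of the motif with its fixed letters in capitals.
Hspa5, chromosome 2, bases 65 to 47 before the start: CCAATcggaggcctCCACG
Hsp90b1, chromosome 10, bases 212 to 194: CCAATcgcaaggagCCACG
Hsp90b1, bases 107 to 89, reverse strand of the gene: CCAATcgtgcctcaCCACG
Calr, chromosome 8, bases 162 to 144, reverse strand of the gene: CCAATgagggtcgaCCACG
Canx, chromosome 11, bases 145 to 127: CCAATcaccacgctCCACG
Creld2, chromosome 15, bases 126 to 108, reverse strand of the gene: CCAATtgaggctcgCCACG
Dnajc3, chromosome 14, bases 105 to 87: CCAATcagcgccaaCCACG
Pdia6, chromosome 12, bases 98 to 80: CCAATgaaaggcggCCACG
Syvn1, chromosome 19, bases 44 to 26: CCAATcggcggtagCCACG
Derl3, chromosome 10, bases 156 to 138, reverse strand of the gene: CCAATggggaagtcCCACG

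The 9 genes are 7 chaperones, folding factors and isomerases, the ubiquitin ligase gene Syvn1 and the degradation gene Derl3. The shorter form, ATTGG and CCACG with 1 base between them, was in Dnajb11 and Herpud1 (4.55% of the 44, against 0.0444% of genes), TGACGTGG, a core of the XBP1 site, was in Sec24d (2.27% against 0.714%), and TGATGNAA, the core of the amino acid response element read by ATF4, was in 2 genes (4.55% against 4.51%). The upstream 250 bases of Hspa5 and of Derl3 are printed whole as examples. Over time in the sections Derl3 rose and Hspa5 did not pass the test, but their changes were not tested against each other. Capitals mark the element as it lies on the strand of the gene.
Hspa5, chr2:34771840-34772089, plus strand: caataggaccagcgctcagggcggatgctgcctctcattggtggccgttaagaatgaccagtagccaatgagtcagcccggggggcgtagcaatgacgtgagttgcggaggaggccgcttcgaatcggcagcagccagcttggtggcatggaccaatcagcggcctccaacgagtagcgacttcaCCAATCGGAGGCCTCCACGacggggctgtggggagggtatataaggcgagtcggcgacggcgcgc
Derl3, chr10:75893148-75893397, plus strand: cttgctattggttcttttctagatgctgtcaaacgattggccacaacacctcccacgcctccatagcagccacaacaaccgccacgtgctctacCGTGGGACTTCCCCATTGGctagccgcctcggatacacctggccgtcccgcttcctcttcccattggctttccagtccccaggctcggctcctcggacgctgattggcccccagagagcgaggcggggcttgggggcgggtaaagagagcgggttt

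The first question was how the pathway moved while the granuloma aged. In whole sections of study 2, 13 of the 53 genes rose at day 105 relative to day 7 and 0 fell, where 19.1% of all genes were called (7.9% higher and 11.2% lower). They were 4 of 8 degradation genes (Sel1l, Edem1, Edem2 and Derl3), 3 of 5 sensors and factors (Atf6, Ern1 and Eif2ak3), 2 of 4 isomerases (Pdia4 and Pdia3) and 2 of 4 genes of oligosaccharyltransferase (Ddost and Rpn2). Rrbp1 and Lman1 were the other two. None of the 13 chaperones and folding factors, and none of the 4 signal peptidase genes, passed the test. The median difference over the 53 was 0.39. Without the array apart the same 13 stayed called and the count was 22 higher and 1 lower, with 27% of all genes called (12.6% higher and 14.5% lower). Those that then rose included 3 chaperones and folding factors (Canx, Dnajb11 and Sdf2l1) and 2 signal peptidase genes (Spcs2 and Spcs3).

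Sel1l, the scaffold of the ubiquitin ligase complex that draws misfolded proteins out of the endoplasmic reticulum, changed most. The 3 whole specimens of day 105 had log2 levels of 10.94, 10.85 and 10.26, against 8.36, 8.22 and 7.95 at day 7. Every late specimen lay above every early one, by 2.51 on average (SE 0.40, limma adjusted p = 2.52e-05), a 5.69-fold difference. The 3 other probe sets of Sel1l rose as well, by 3.38, 2.85 and 2.2.

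Edem1 and Edem2 belong to a family of lectin-like proteins that trim mannose from misfolded glycoproteins and so hand them over for disposal. Edem1 had 12.49, 12.45 and 12.20 in whole sections at day 105, against 10.29, 10.05 and 10.22 at day 7 (difference 2.19, SE 0.43, limma adjusted p = 0.000355). A second Edem1 probe set rose by 1.30. Edem2 had 10.77, 10.26 and 9.81 at day 105, against 8.88, 8.59 and 8.82 at day 7 (difference 1.52, SE 0.35, limma adjusted p = 0.00175). Both genes were separated completely between the days. The intermediate days were not a straight line: in Edem1 the whole specimens read 10.18, 10.53 and 9.22 at day 17, 11.37, 11.60 and 11.84 at day 33, and 10.79, 11.36 and 11.40 at day 49. Sel1l had the same shape, with 8.44, 8.30 and 6.37 at day 17, 9.89, 9.85 and 9.83 at day 33, and 8.10, 9.08 and 9.55 at day 49.

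Derl3, a derlin found mainly in secretory cells that helps to move proteins back across the membrane, had 11.23, 10.71 and 9.91 in whole sections at day 105, against 9.33, 8.94 and 9.26 at day 7 (difference 1.44, SE 0.41, limma adjusted p = 0.0105). It was the 1 of the 9 genes with a stress element in its window that rose. Of the 34 measured genes with a window but no element 10 did so, beside 7.9% of all genes. The median differences of these groups were 0.22 and 0.47. With the array apart left out, 2 of the 9 rose, and 17 of the 34 rose and 1 fell, where 12.6% of all genes rose and 14.5% fell. No sequence match shows that a factor bound there.

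Among the isomerases, which make and shuffle the disulfide bonds of antibodies, Pdia4 had 12.07, 11.58 and 10.97 at day 105, against 9.30, 8.70 and 10.12 at day 7 (difference 2.17, SE 0.55, limma adjusted p = 0.0045). The lowest late specimen was above the highest early one. Pdia3, which works with calnexin and calreticulin on glycoproteins, rose by 1.16 (SE 0.42, limma adjusted p = 0.0495), close to the threshold.

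Among the sensors and factors, Atf6, Eif2ak3 and Ern1 rose, and Ddit3 and Atf4, which act downstream of PERK, did not pass. Atf6 had 8.40, 8.04 and 8.10 in whole sections at day 105, against 6.94, 7.20 and 6.41 at day 7 (difference 1.33, SE 0.33, limma adjusted p = 0.00319). Eif2ak3 had 9.64, 9.99 and 9.23, against 8.64, 8.47 and 7.93 (difference 1.27, SE 0.40, limma adjusted p = 0.0223). Of its 2 other probe sets 1 rose, by 1.14, and the other differed by 0.64 without passing. Ern1 had 5.97, 6.53 and 6.88, against 5.36, 5.25 and 5.62 (difference 1.05, SE 0.23, limma adjusted p = 0.00107). Its early values lay under 5.68, the median of the arrays and the level that the filter on low values uses, so its rise began from low values. In all 3 of these sensors the late values lay above the early ones.

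Ddit3, the pro-apoptotic factor CHOP, had 5.89, 5.70 and 5.49 at day 105, against 6.33, 6.02 and 6.31 at day 7. Every late value lay below every early one, but the difference of −0.53 did not pass (limma adjusted p = 0.378). Atf4 had 9.71, 9.76 and 9.94, against 9.32, 9.27 and 9.95, a difference of 0.29 that did not pass either. The most abundant chaperones were likewise without a call. Hspa5 had 13.68, 13.37 and 12.33 at day 105, against 13.37, 13.41 and 13.11 at day 7 (difference −0.17, limma adjusted p = 0.779). Hsp90b1, the lumenal HSP90, had 13.10, 12.62 and 11.78, against 12.53, 12.38 and 12.35 (difference 0.08). In both, the late specimens spread wider than the early ones and enclosed them.

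Rrbp1, the ribosome-binding protein of the rough endoplasmic reticulum, had 9.94, 10.40 and 10.64 at day 105, against 8.85, 9.20 and 7.84 at day 7 (difference 1.70, SE 0.39, limma adjusted p = 0.00193). One further probe set of Rrbp1 rose by 1.59 and another differed by 0.22. Ddost, a subunit of the enzyme that attaches sugar chains to new proteins, had 10.82, 11.43 and 11.43 against 9.69, 9.91 and 9.74 (difference 1.45, SE 0.47, limma adjusted p = 0.0264). Its partner Rpn2 rose by 1.06 (SE 0.36, limma adjusted p = 0.0323), and Lman1, a lectin that carries glycoproteins towards the Golgi, by 0.84 (SE 0.30, limma adjusted p = 0.0438).

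**Figure D2:**
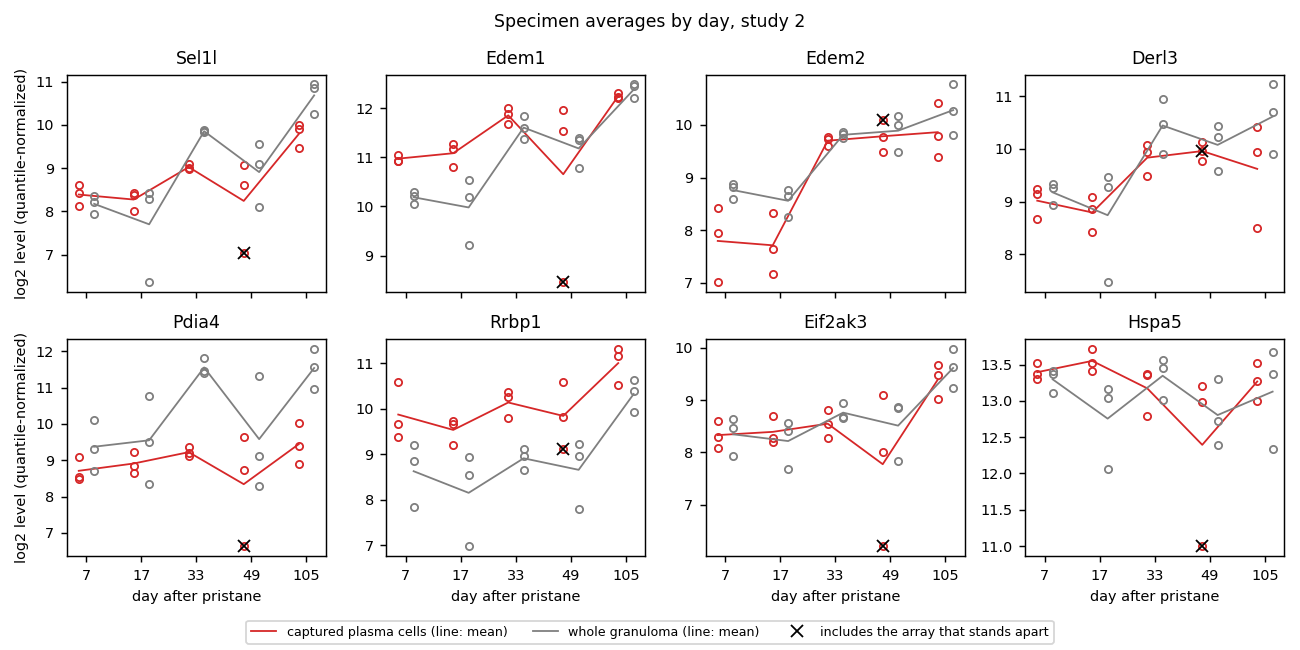
Log2 levels (y axis) of 8 genes in every specimen of study 2 by day after pristane (x axis), with captured cells in red to the left and whole sections in grey to the right of each day, lines at the means, and a cross on the specimen that includes the array apart. Sel1l, Edem1, Edem2 and Pdia4 rise in the whole sections between days 7 and 105, and Hspa5 stays between 12.06 and 13.68 there.

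The cells in these sections also differed between the days. The 6 plasma cell markers Prdm1 (2.33), Irf4 (1.83), Eaf2 (1.64), Slamf7 (1.23), Pou2af1 (1.10) and Xbp1 (0.79) rose, of 11 tested, and their summed level was 14.81, 14.41 and 14.42 at day 105, against 13.82, 13.76 and 13.84 at day 7. All 9 smooth muscle markers fell, with a median difference of −4.10 and sums of 11.35, 9.02 and 11.65 at day 105, against 15.3, 14.18 and 14.54 at day 7. Of adipocyte markers 5 of 8 fell, of fibroblast markers 5 of 12, and of macrophage markers 3 of 16 fell and 1 rose. The part of these shifts in the rise of the secretory genes was not tested.

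Captured plasma cells of study 2 gave fewer calls over the same interval: 2 genes rose, Edem2 and Sel1l, and 0 fell, where 4.75% of all genes were called (2.67% higher and 2.08% lower). Edem2 had 10.41, 9.79 and 9.39 at day 105, against 7.02, 7.95 and 8.42 at day 7 (difference 2.07, SE 0.35, limma adjusted p = 0.000261). Sel1l had 9.91, 9.99 and 9.46, against 8.62, 8.43 and 8.12 (difference 1.40, SE 0.40, limma adjusted p = 0.0296). All late values of both genes were above all early ones. Specimen 1 of day 7, which carried the acinar RNA, was the lowest in Edem2 and the highest in Sel1l. Without that specimen the differences were 1.68 (limma adjusted p = 0.0118) and 1.51 (limma adjusted p = 0.104), so that only Edem2 kept its call.

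Edem2 in captured cells stepped up between days 17 and 33. Its specimens read 7.17, 8.32 and 7.65 at day 17, 9.73, 9.60 and 9.77 at day 33, and 9.49, 10.08 and 9.78 at day 49. The 10.08 includes the array apart, without which that specimen read 9.08. The captured values of days 7 and 17 lay wholly below those of the later days. In whole sections the same gene read 8.65, 8.77 and 8.25 at day 17 and 9.75, 9.82 and 9.87 at day 33.

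Edem1 needs the array apart to be set aside. It had 12.30, 12.23 and 12.21 in captured cells at day 105, against 10.93, 11.06 and 10.93 at day 7, with no overlap. The difference of 1.27 missed the threshold with all arrays (SE 0.43, limma adjusted p = 0.0805) and passed without the array, where it was 1.28 (SE 0.25, limma adjusted p = 0.000943). Eif2ak3 had 9.02, 9.48 and 9.67 against 8.61, 8.09 and 8.30, a difference of 1.06 that passed only without the array (limma adjusted p = 0.13 with it and 0.0257 without it). A second Eif2ak3 probe set rose by 2.05 in captured cells with all arrays. Ssr4, a subunit of the translocon-associated TRAP complex, differed by 1.15 and also passed only without the array (limma adjusted p = 0.0648 and 0.021). The count without it was 5 of 53, all higher, where 8.5% of all genes were called (5.02% higher and 3.47% lower).

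Atf6, Ddit3, Atf4 and the large chaperones stayed near their early levels in captured cells. Atf6 had 8.04, 7.68 and 7.91 at day 105, against 7.63, 7.80 and 7.88 at day 7, a difference of 0.10. Ddit3 differed by −0.24 and Atf4 by −0.22. Hspa5 had 13.52, 13.28 and 13.00, against 13.29, 13.52 and 13.37 (difference −0.13, limma adjusted p = 0.921), and Hsp90b1 had 12.22, 12.23 and 12.20, against 12.76, 12.33 and 12.22 (difference −0.22). The early and late values of Atf6, Hspa5 and Hsp90b1 overlapped, and none of these 5 genes passed the test. Pdia4, which rose in the sections, had 10.04, 9.40 and 8.89 in captured cells, against 8.48, 9.10 and 8.54 (difference 0.73, limma adjusted p = 0.557).

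Whether the change over time differed between captured cells and whole sections was tested directly. 0 of 53 genes passed, where 1.69% of all genes were called, and the median of the differences was −0.30. The count was also 0 without the array apart, where 5.91% of all genes were called (3.9% higher and 2% lower). The smallest p was that of Atf6, whose change was lower in captured cells by 1.23 (difference −1.23, SE 0.43, limma adjusted p = 0.118, or 0.0606 without the array apart). The calls in sections and the missing calls in captured cells are therefore not shown to differ. The self-test on simulated data recovered 25.5% of genes changed by 1 on the log2 scale over this interval in whole sections, so many changes of that size were missed there. It changed 200 of 8618 genes, whereas 19.1% were called in the data, so the recovery in the data can differ.

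**Figure D3:**
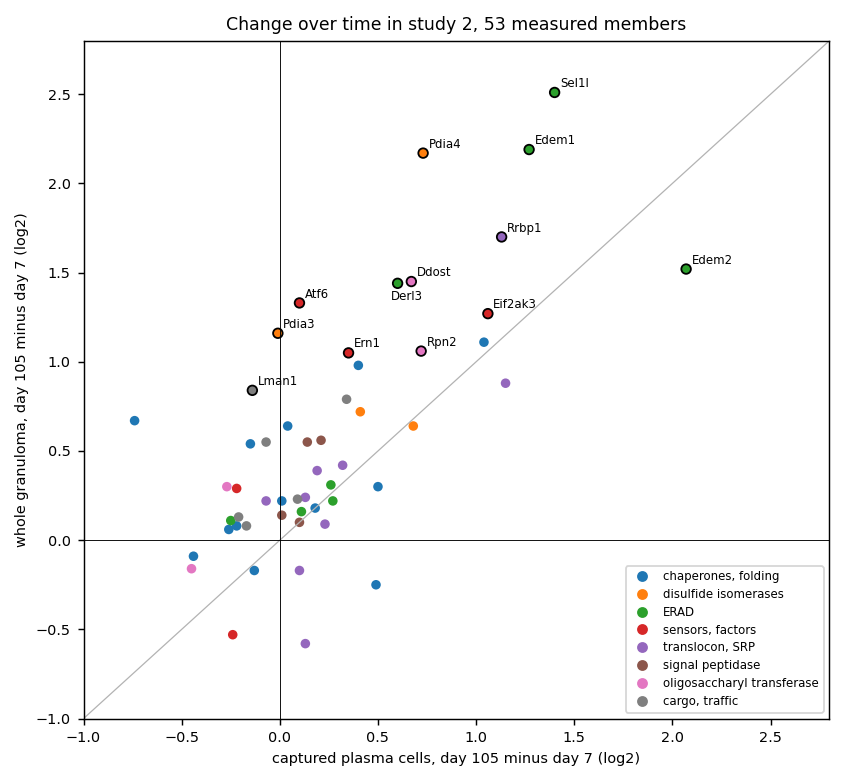
Each point is 1 of the 53 genes, with its log2 difference between days 105 and 7 in captured cells on the x axis and in whole sections of study 2 on the y axis, and the diagonal marks equal change. Outlined and labelled genes are the 13 that passed the test in whole sections, and Sel1l (1.40 and 2.51) and Edem2 (2.07 and 1.52) passed in both.

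Over all 5 days, an F test called 16 genes in whole sections (25.4% of all genes) and 4 in captured cells (12.5%). The 4 were Sel1l, Edem1, Edem2 and Rpn1, a subunit of oligosaccharyltransferase. Without the array apart Rpn1 was lost and Ssr4 was gained in captured cells (11.1% of all genes), and 26 genes were called in whole sections (40.6%). The mean of the 8 degradation genes, without the array, was 9.36, 9.27, 10.07, 9.96 and 10.08 in captured cells at days 7, 17, 33, 49 and 105, and 9.34, 9.10, 10.13, 9.88 and 10.40 in whole sections. In both tissue types the first 2 days were the lowest. The mean of all 53 genes moved less, spanning 10.36 to 10.62 in captured cells and 9.99 to 10.80 in whole sections. In whole sections the mean of the isomerases also stepped up, from 11.16 at day 17 to 12.44 at day 33.

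**Figure D4:**
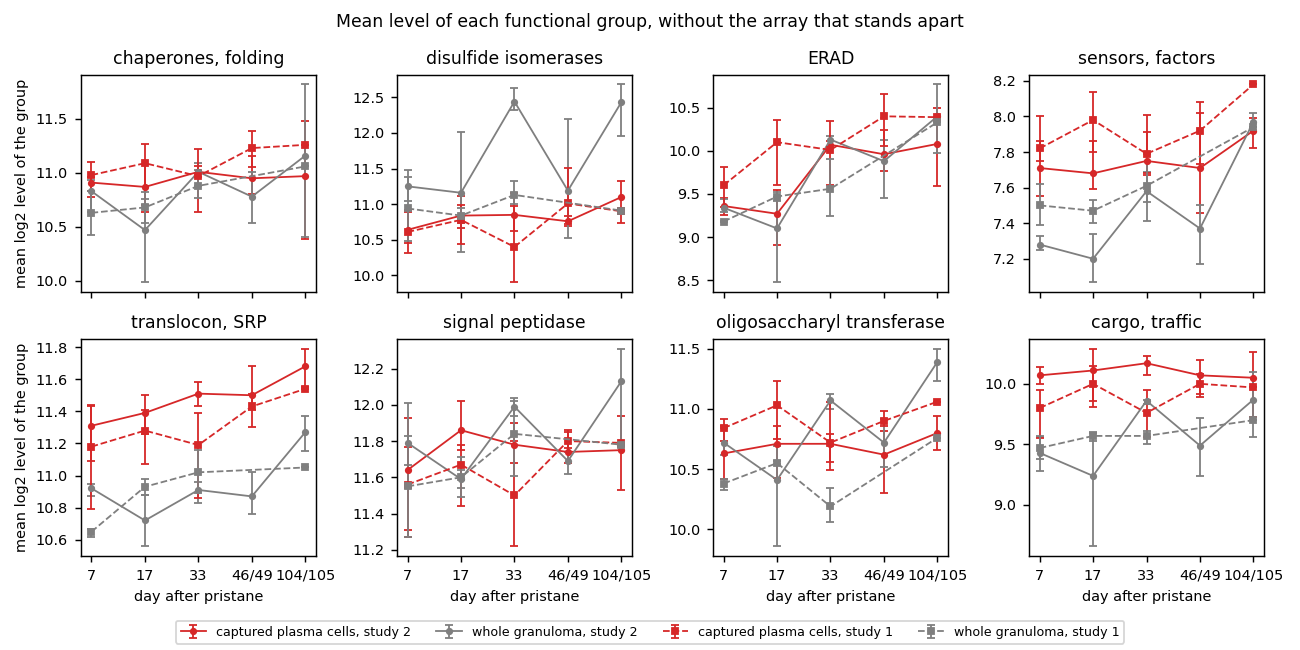
Mean log2 level (y axis) of the genes of each role by day after pristane (x axis), without the array apart, in captured cells (red) and whole sections (grey) of study 2 (solid) and study 1 (dashed), with bars from the lowest to the highest specimen. The degradation genes step up between days 17 and 33 in study 2, at 10.07 on day 33 against 9.27 on day 17 in captured cells and 10.13 against 9.10 in whole sections. In whole sections the isomerases (12.44 against 11.16) and oligosaccharyltransferase (11.07 against 10.41) step up too. In study 1 the degradation genes stand at 10.01 against 10.10 in captured cells and 9.56 against 9.47 in whole sections.

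Study 1 offers the second cohort for these genes, with fewer specimens. Of the 53 genes, 0 passed between days 46 and 7 in captured cells, where 0.058% of all genes were called (0.0348% higher and 0.0232% lower), and 0 passed between days 104 and 7 in whole sections, where 0% were called and day 104 is 1 specimen. An F test over all days called 0 in captured cells (0.522% of all genes) and 0 in whole sections (0.0348%). At day 46, 1 gene (Sel1l) passed without the array apart, where 0.746% of all genes were called. Captured Sel1l had 9.22, 9.89 and 9.32 at day 46, against 8.38, 7.72, 8.35 and 8.30 at day 7, with no overlap. The difference was 1.29 (SE 0.37, limma adjusted p = 0.188 with all arrays and 0.0401 without the array apart). Edem2 had 8.70, 9.60 and 9.32, against 8.71, 8.01, 8.10 and 7.64, so that 1 early specimen reached the late range (difference 1.09, SE 0.33, limma adjusted p = 0.2). Derl3 had 9.88, 10.69 and 10.41, against 9.38, 8.77, 9.47 and 9.27, without overlap (difference 1.11, SE 0.38, limma adjusted p = 0.285). Edem1 had 11.63, 11.73 and 11.91, against 11.30, 10.51, 11.07 and 10.63, again without overlap.

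At day 104 of study 1 the single captured specimen had 9.81 for Sel1l and 12.04 for Edem1. The single whole specimen had 9.08 for Sel1l, against 7.55 and 7.41 at day 7, and 11.77 for Edem1, against 10.00 and 10.20. Each late value lay above the early ones of its tissue type, but Sel1l, at 1.61 (SE 0.59), and Derl3, at 2.08 (SE 0.61), did not pass in whole sections (limma adjusted p = 1 and 0.936). The degradation genes averaged 9.60, 10.10, 10.01, 10.40 and 10.39 in captured cells at days 7, 17, 33, 46 and 104, without the array apart, and 9.18, 9.47, 9.56 and 10.33 in whole sections at days 7, 17, 33 and 104. In neither tissue type was any later mean below that of day 7. The step of study 2 between days 17 and 33 was not seen in either.

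The second question was how captured plasma cells differ from the sections around them. In study 2, 13 of 53 genes were higher and 13 lower in captured cells than in whole sections, where 69.8% of all genes were called (34.5% higher and 35.3% lower), and the median difference was −0.13. In study 1 the counts were 17 higher and 4 lower of 53, where 60.5% were called (31.5% and 29%), with a median of 0.30. These splits depend on the scale. When every array was instead shifted to a common median, they were 36 higher and 3 lower in study 2 and 27 higher and 0 lower in study 1. With the values as deposited, where captured arrays have lower medians, they were 1 and 49 in study 2 and 4 and 13 in study 1, and the median of all genes lay at −1.68 and −0.60. Shares of all genes on these other scales are not given here, so such counts are not a result about the listed genes. With the 3′ to 5′ difference in the model the splits were 1 and 27, and 2 and 13, where 40.2% of all genes were called in study 2 (13.8% higher and 26.3% lower) and 48.2% in study 1 (20.3% and 28%). This ended 15 of the 26 calls of study 2 (Atf4, Atf6, Derl1, Dnajc3, Edem2, Kdelr1, Kdelr2, Lman1, Pdia3, Rpn1, Rrbp1, Sec61b, Srp14, Srp9 and Syvn1) and 17 of the 21 of study 1, where Dad1, Dnajb9, P4hb and Srp14 kept theirs. With the array apart left out as well, the counts were 4 higher and 0 lower in study 2 (Kdelr2, Sec61b, Srp14 and Srp9), where 17.5% of all genes were called, and 12 and 0 in study 1, where 44.9% were.

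Markers of other cells were lower in captured cells: 9 of 9 for smooth muscle and 8 of 8 for adipocytes in both studies, 13 and 14 of 16 for macrophages, and 8 and 9 of 12 for fibroblasts, in studies 2 and 1. Acinar markers parted by study: of 11 tested, 3 were higher and 0 lower in captured cells of study 2 (median difference 0.72), and 0 were higher and 6 lower in those of study 1 (median −1.59). Of 11 plasma cell markers, captured cells of study 2 had 6 at higher levels and 1 at a lower level, and those of study 1 had 3 at higher levels. The part of these markers in the tissue differences was not tested. Without the array apart the counts of the 53 genes were 20 higher and 12 lower in study 2 (74.5% of all genes called, 38.6% and 35.9%) and 26 higher and 7 lower in study 1 (67.6%, 35.8% and 31.7%).

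Of the translocon and signal recognition particle genes, 4 of 9 were higher and 0 lower in study 2, and 5 of 9 were higher and 0 lower in study 1, beside the 34.5% and 31.5% of all genes that were higher. The counts without the array apart were 6 and 0 in study 2 and 7 and 1 in study 1. Sec61b, a small subunit of the translocation channel, spanned 9.40 to 12.88 with a median of 12.67 in captured cells of study 2, against 10.91 to 11.83 with a median of 11.44 in whole sections. Without the array apart the captured values of Sec61b were 12.38 to 12.93. With all arrays Sec61b was higher in 14 of 15 specimens, by 1.10 (SE 0.18, limma adjusted p = 7.09e-07), and by 0.62 in study 1 (SE 0.25, limma adjusted p = 0.0301). Srp14, an RNA-binding subunit of the signal recognition particle, was 0.73 higher in study 2 (SE 0.09, limma adjusted p = 8.41e-09) and 0.59 higher in study 1 (SE 0.13, limma adjusted p = 0.000204). In study 1 its captured values, 10.82 to 11.30, all lay above its whole values, 9.67 to 10.77. Rrbp1 was higher in 15 of 15 specimens of study 2, at 9.13 to 11.32 (median 9.81) against 6.99 to 10.64 (median 8.96), by 1.14 (SE 0.17, limma adjusted p = 1.14e-07), and by 0.80 in study 1 (SE 0.24, limma adjusted p = 0.00356).

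The model with the 3′ to 5′ difference ended the study 2 calls of these genes: Sec61b stood at −0.36, Srp14 at 0.57 (limma adjusted p = 0.0845) and Rrbp1 at 0.56 (limma adjusted p = 0.345). Sec61b and Srp14 kept their calls in that model when the array apart was also left out, at 1.36 (limma adjusted p = 0.0016) and 0.95 (limma adjusted p = 0.027), and Rrbp1 did not, at 1.05 (limma adjusted p = 0.2). As deposited, Srp14 and Rrbp1 turned to −0.45 and −0.31 in study 2.

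Rpn1 and Dnajc3 were also among the largest increases of study 2. Rpn1, an oligosaccharyltransferase subunit that sits at the translocon, spanned 8.59 to 13.08 (median 12.52) in captured cells and 10.88 to 12.15 (median 11.66) in whole sections (difference 0.74, SE 0.19, limma adjusted p = 0.00082). Without the array apart the captured values of Rpn1 were 12.24 to 13.13. Dnajc3, a cochaperone that inhibits PERK, spanned 6.85 to 11.05 (median 9.94) against 7.69 to 11.17 (median 9.00) (difference 0.78, SE 0.26, limma adjusted p = 0.007), and its further probe sets were higher by 0.42 to 0.67. With the 3′ to 5′ difference in the model Rpn1 and Dnajc3 turned to −1.09 and −0.96. When the array apart was also left out, neither turned its sign and neither kept its call. Rpn2, the neighbour of Rpn1 in the same enzyme, was lower in captured cells at 7.20 to 10.17 (median 9.52) against 8.88 to 11.21 (median 10.34) (difference −0.90, SE 0.15, limma adjusted p = 1.93e-06).

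The isomerases were lower in study 2, with all 4 past the threshold in captured cells, where 35.3% of all genes were lower. Pdia4 spanned 6.63 to 10.04 (median 9.10) in captured cells and 8.30 to 12.07 (median 10.78) in whole sections, a difference of −1.39 (SE 0.23, limma adjusted p = 1.57e-06). Pdia3 was lower by 0.99 (difference −0.99, SE 0.18, limma adjusted p = 6.23e-06), at 8.60 to 10.55 (median 9.95) against 9.87 to 11.99 (median 11.18). P4hb, the classical disulfide isomerase, was lower in 15 of 15 specimens (difference −0.75, SE 0.11, limma adjusted p = 2.94e-07) and differed by 0.42 the other way when arrays were centred on their own medians. Pdia6 differed by −0.85 (SE 0.22, limma adjusted p = 0.000952), but its second probe set was 0.56 higher in captured cells. With the 3′ to 5′ difference in the model Pdia4, P4hb and Pdia6 kept their calls in study 2 and Pdia3 did not, at −0.81 (limma adjusted p = 0.208), and when the array apart was also left out all 4 calls ended. In study 1, Pdia3 (−0.82, SE 0.25, limma adjusted p = 0.00536) and P4hb (−0.42, SE 0.16, limma adjusted p = 0.0228) were lower, while Pdia4 at 0.52 (limma adjusted p = 0.174) and Pdia6 at −0.38 (limma adjusted p = 0.305) did not pass.

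Kdelr2, a receptor that returns escaped chaperones from the Golgi, had the largest difference in study 2. It spanned 7.26 to 10.66 (median 9.77) in captured cells, against 6.99 to 7.99 (median 7.62) in whole sections, and was higher in 14 of 15 specimens (difference 1.99, SE 0.18, limma adjusted p = 8.69e-13). Without the array apart the captured values of Kdelr2 were 8.91 to 10.69. In study 1 the captured values of 9.74 to 10.38 all exceeded the whole values of 8.24 to 9.11 (difference 1.15, SE 0.25, limma adjusted p = 0.000152). The second Kdelr2 probe set disagreed in study 2, where it was lower by 0.45 (difference −0.45, SE 0.18, limma adjusted p = 0.0255), and with the 3′ to 5′ difference in the model the first stood at 0.24 (limma adjusted p = 0.669), or at 1.40 (limma adjusted p = 0.0135) with the array apart also left out. Its relative Kdelr1 was higher by 0.71 in study 2 (SE 0.11, limma adjusted p = 4.31e-07), a call that ended with the 3′ to 5′ difference in the model, at −0.26 (limma adjusted p = 0.457). The call of Kdelr1 also ended in that model when the array apart was left out.

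Among degradation genes 2 were higher and 2 lower of 8 in study 2, and 5 higher and 1 lower in study 1. Syvn1, the ubiquitin ligase HRD1, spanned 6.44 to 8.56 (median 8.22) in captured cells and 6.10 to 8.17 (median 7.64) in whole sections of study 2, a difference of 0.50 (SE 0.16, limma adjusted p = 0.00622). In study 1 it spanned 8.63 to 10.23 (median 9.38) against 6.97 to 9.13 (median 7.93), a difference of 1.21 (SE 0.23, limma adjusted p = 2.35e-05). The model with the 3′ to 5′ difference ended both calls, with Syvn1 at −0.45 (limma adjusted p = 0.433) in study 2 and 0.71 (limma adjusted p = 0.0519) in study 1. When the array apart was also left out, Syvn1 kept its call in study 1 but not in study 2. Edem2 was lower in 15 of 15 specimens of study 2 (difference −0.49, SE 0.15, limma adjusted p = 0.00339). Derl2, another derlin, was lower in study 1 (difference −0.55, SE 0.14, limma adjusted p = 0.000661), and a second probe set of it by 0.70 (difference −0.70).

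Of the sensors and factors 3 of 5 were higher in captured cells of study 2 and 1 of 5 in study 1, beside 34.5% and 31.5% of all genes, and the count was 3 of 5 in both studies when the array apart was left out. Atf4, a factor that PERK signalling favours, was higher in both: 8.93 to 10.96 (median 9.86) against 9.06 to 9.95 (median 9.49) in study 2 (difference 0.40, SE 0.11, limma adjusted p = 0.00192), and 9.50 to 10.33 (median 9.86) against 8.94 to 9.88 (median 9.26) in study 1 (difference 0.45, SE 0.16, limma adjusted p = 0.0147). Its other 2 probe sets were higher too, by 1.72 and 0.90 in study 2 and by 2.12 and 0.70 in study 1. As deposited, Atf4 stood at −1.03 and −0.08, and with the 3′ to 5′ difference in the model at 0.06 (limma adjusted p = 0.892) and 0.27 (limma adjusted p = 0.321). In that model without the array apart, Atf4 kept its call in study 1 but not in study 2. Atf6 was higher in study 2 at 7.37 to 8.62 (median 7.91) against 5.45 to 8.40 (median 7.25), by 0.67 (SE 0.14, limma adjusted p = 4.39e-05), and differed by 0.12 in study 1 (limma adjusted p = 0.623). Its study 2 call ended with the 3′ to 5′ difference in the model, at 0.84 (limma adjusted p = 0.0825).

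Ddit3 spanned 6.07 to 9.51 (median 6.64) in captured cells and 5.49 to 7.14 (median 6.08) in whole sections of study 2, and was higher by 0.62 (SE 0.17, limma adjusted p = 0.00121). The 9.51 comes from the specimen with the array apart, whose other array read 6.76, and without that array the difference was 0.44 (limma adjusted p = 0.000619). With the 3′ to 5′ difference in the model Ddit3 kept its call at 1.46 (limma adjusted p = 0.0109), and lost it at −0.06 when the array was also left out. In study 1 it was 6.03 to 6.99 (median 6.44) against 5.71 to 6.94 (median 6.09), a difference of 0.17 (limma adjusted p = 0.538). Ern1 stayed close to the array median in both, at 4.59 to 6.26 (median 5.59) against 5.12 to 6.88 (median 5.57) in study 2 and 5.69 to 6.40 (median 6.04) against 5.65 to 6.45 (median 5.83) in study 1, with no call, though it passed in study 1 without the array apart (difference 0.28, limma adjusted p = 0.0395). Eif2ak3 did not pass through the probe set that represents it, at 6.20 to 9.67 (median 8.55) against 7.67 to 9.99 (median 8.66) in study 2 (difference −0.20, limma adjusted p = 0.289) and 8.40 to 10.01 (median 9.47) against 8.57 to 9.48 (median 8.97) in study 1 (difference 0.54, limma adjusted p = 0.0517, or 0.00834 without the array apart). Its other 2 probe sets were higher in captured cells, by 1.45 and 0.63 in study 2 and by 1.15 and 0.61 in study 1.

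Hspa5 and Hsp90b1 did not separate the tissue types. Hspa5 spanned 11 to 13.72 (median 13.36) in captured cells and 12.06 to 13.68 (median 13.16) in whole sections of study 2 (difference 0.09, SE 0.14, limma adjusted p = 0.589, or 0.25 and 0.0317 without the array apart). In study 1 it spanned 12.97 to 13.52 (median 13.21) against 12.75 to 13.41 (median 13.03) (difference 0.17, SE 0.21, limma adjusted p = 0.475). Hsp90b1 spanned 8.78 to 12.76 (median 12.20) against 11.49 to 13.10 (median 12.38) in study 2 (difference −0.31, limma adjusted p = 0.126), and 11.79 to 12.47 (median 12.17) against 11.90 to 12.62 (median 12.24) in study 1 (difference −0.08, limma adjusted p = 0.812). These chaperones were thus high in both tissue types, and the intervals of the values overlapped throughout. Of the 9 genes with a stress element, 2 were higher and 2 lower in study 2, and 2 higher and 0 lower in study 1, or 4 and 3, and 2 and 0, without the array apart.

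**Figure D5:**
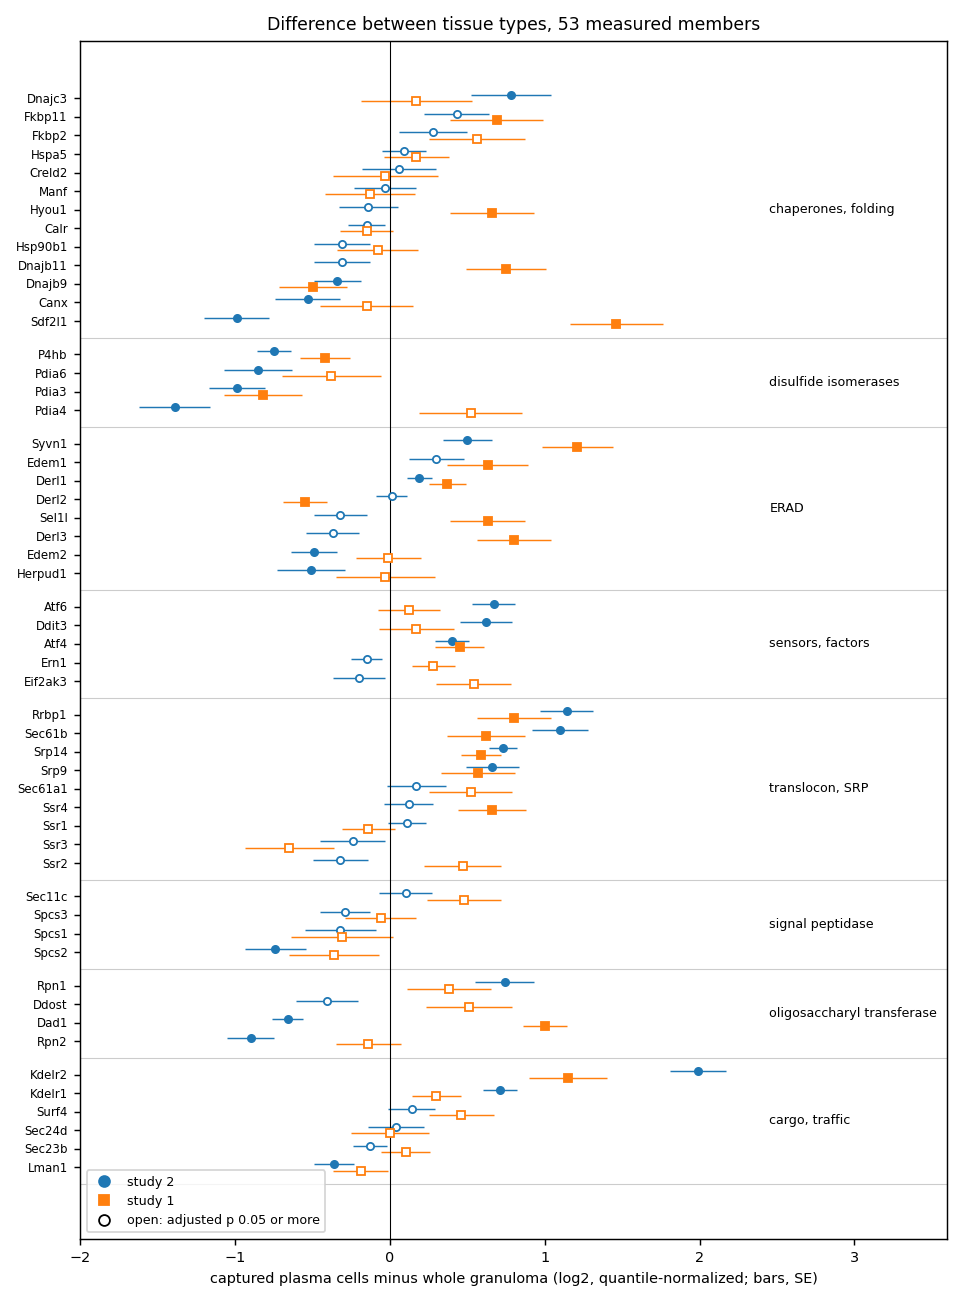
Log2 difference of captured cells minus whole sections with its standard error (x axis) for each of the 53 genes (rows, grouped by role), as circles for study 2 and squares for study 1, open where the adjusted p is 0.05 or more. Kdelr2 lies furthest to the right in study 2 (1.99) and Pdia4 furthest to the left (−1.39), and Sdf2l1 and Dad1 have circles and squares on opposite sides of 0.

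The 2 cohorts did not always give the same direction. 8 genes were higher in captured cells in both studies (Atf4, Derl1, Kdelr2, Rrbp1, Sec61b, Srp14, Srp9 and Syvn1), where 18.6% of all genes were, and 3 were lower in both (Dnajb9, P4hb and Pdia3), where 18% were. A further 2 were called in opposite directions, Dad1 and Sdf2l1, where 7.93% of all genes were. Leaving out the array apart gave 14 genes higher in both (22% of all genes), with Edem1, Fkbp11, Kdelr1, Rpn1, Sec61a1 and Surf4 added, 3 lower in both (P4hb, Pdia3 and Spcs2, beside 19.2%) and 3 in opposite directions (Dad1, Derl3 and Sdf2l1, beside 10.3%). The study 2 call of Dnajb9, a cochaperone that represses IRE1, was lost without the array apart (difference −0.16, limma adjusted p = 0.183). The difference between the studies was itself past the threshold for 11 genes, 3 in which study 2 had the higher difference and 8 in which it had the lower one, where 44.8% of all genes were called (22.8% and 22.1%). Acinar markers differed between the studies in the same contrast, with 7 of 11 at a higher difference in study 2 (median 2.04), and their part in these genes was not tested.

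Sdf2l1, a lumenal factor that works with BiP cochaperones, showed this most. In study 2 it spanned 6.28 to 10.63 (median 9.16) in captured cells and 8.98 to 11.58 (median 9.88) in whole sections, and was lower in 15 of 15 specimens (difference −0.99, SE 0.21, limma adjusted p = 8e-05). In study 1 its captured values of 9.39 to 10.83 all lay above its whole values of 7.94 to 9.17 (difference 1.46, SE 0.30, limma adjusted p = 6.93e-05). The sign was the same on every day within a study: −0.92, −0.96, −0.86, −1.23 and −0.98 at days 7, 17, 33, 49 and 105 of study 2, and 1.87, 1.49, 0.99 and 1.52 at days 7, 17, 33 and 104 of study 1. The difference between the studies was −2.39 (SE 0.38, limma adjusted p = 3.03e-06).

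Dad1, the small subunit of oligosaccharyltransferase, had 9.78 to 11 (median 10.40) in captured cells against 10.47 to 11.64 (median 11.07) in whole sections of study 2 (difference −0.66, SE 0.10, limma adjusted p = 3.41e-07). In study 1 it had 10.21 to 11.12 (median 10.91) against 9.25 to 10.23 (median 9.80) (difference 1.00, SE 0.14, limma adjusted p = 2.43e-07). Its second probe set was higher in both studies, by 0.24 and 1.09, and still lower in study 2 than in study 1 (difference −0.88, limma adjusted p = 0.000302). For the first the difference between studies was −1.66 (SE 0.18, limma adjusted p = 2.92e-09).

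Pdia4 (−1.95, SE 0.42, limma adjusted p = 0.000234) and Derl3 (−1.23, SE 0.31, limma adjusted p = 0.00137) also gave lower differences in study 2. By day, Pdia4 differed by −0.66, −0.64, −2.33, −1.24 and −2.10 in study 2, and by 0.67, 1.04, 0.01 and 0.36 in study 1. Derl3 was 0.80 higher in captured cells of study 1 (SE 0.24, limma adjusted p = 0.00465), at 8.77 to 10.69 (median 10.04) against 8.14 to 10.40 (median 8.72). Kdelr2 had the largest difference in the other direction, of 1.00 (SE 0.32, limma adjusted p = 0.00998), but its second probe set gave −0.94. The differences between the studies of Sdf2l1, Pdia4, Dad1 and Derl3 stayed past the threshold with the 3′ to 5′ difference in the model, at −3.30, −2.61, −1.88 and −1.27, and that of Kdelr2 did not, at 0.03. Derl2 had a difference of 0.53 between the studies, its second probe set gave 0.50, and the call was kept at 0.67 (limma adjusted p = 0.0129) with the 3′ to 5′ difference in the model.

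Of the 53 genes, 28 have another probe set above the filter, which allows the choice of probe set to be read against the result. In the tissue difference of study 2, 14 of these 28 were called, and for 7 of the 14 another probe set was called in the opposite direction (Canx, Dad1, Derl1, Kdelr2, Lman1, Pdia6 and Spcs2). In study 1 this held for 1 of 13, Sel1l. In the change over time in whole sections all 5 called genes with a further probe set (Edem1, Eif2ak3, Lman1, Rrbp1 and Sel1l) had another one called in the same direction and none in the opposite one.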

How the data were processed

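The deposited values are log2 intensities of Affymetrix probe sets, 22690 per array on 82 arrays, for which the submitters' processing notes name RMA and Partek without versions. Per the labels' protocols, RNA went through 2 rounds of linear amplification, which can favour 3′ ends. The medians of the deposited columns differed by group (4.973 to 5.111 and 5.727 to 5.825 in captured and whole arrays of study 1, 5.309 to 5.641 and 7.113 to 7.335 in study 2), so all arrays were quantile-normalized together. A single symbol was given for 20393 probe sets, several for 691 and none for 1606, and 20364 matched a current symbol. Genes above the array median in at least 3 specimen averages were tested.

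limma 3.58.1 in R 4.3.3 fitted 19 means of study, tissue type and day, and treated the code as a random block through duplicateCorrelation (correlation 0.111). Specimens with both tissue types carry the same code, which is where the pairing comes from. A fixed block moved the counts of the study 1 tissue difference (4 higher and 1 lower) and of the difference between studies (0 and 4) by over 1.5 times, since only 5 specimens of study 1 have both tissue types. Tissue differences are means over the days that hold both types. The script was tested on simulated data. The precision is limited by the number of specimens.

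Members and lists were chosen with earlier results of these data known. Values by specimen are given for Hspa5, Hsp90b1, the 5 sensors and factors and, per comparison, up to 6 members with the largest called differences in each direction.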

Additional observations from a re-analysis of the deposited data

Results flagged for a closer look

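Groups of 4 specimens, which are captured cells of days 7 and 17 in study 1, were searched for a value far from the others, gene by gene. Of 60 searches 4 found one, and chance finds about 1 in 20. Ddit3 read 6.53 in a specimen of day 17, where the others lay between 6.39 and 6.40. Dnajb11 read 10.01 in a specimen of day 17, where the others began at 10.52. Rrbp1 read 9.12 in a specimen of day 7, where the others began at 10.00. Sel1l read 7.72 in a specimen of day 7, where the others began at 8.30.

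The difference of captured cells minus whole sections was itself different between study 2 and study 1 for 11 genes, by the test of the interaction. It was lower in study 2 for Sdf2l1 (−2.39), Pdia4 (−1.95), Dad1 (−1.66), Derl3 (−1.23), Dnajb11 (−0.94), Sel1l (−0.86), Rpn2 (−0.68) and Ern1 (−0.45). It was higher in study 2 for Kdelr2 (1.00), Derl2 (0.53) and Kdelr1 (0.49). Without the array apart 20 genes passed, 7 with a higher and 13 with a lower difference. The studies also differ in the gap of the 3′ to 5′ measure between tissue types, and the part of that gap was not tested beyond the model in which it is a covariate.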

How the results depend on the processing

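Counts are called genes of 53, higher and lower in brackets. Shares of all genes are not given beside them, so they show how the calls moved and are not a result about these genes. With the values as deposited the tissue difference of study 2 had 50 (1 and 49), the difference between studies 35 (0 and 35), the change to day 105 in captured cells 4, and any day 7 in captured cells and 10 in whole sections of study 2. Centring each array on its own median gave 5 and 8 for the change to day 105 and any day in captured cells. The fixed replicate block gave 5 (4 and 1) for the tissue difference of study 1 and 4 (0 and 4) between studies, and without any replicate block the counts were 23, 19, 11, 2 and 12 for the tissue differences of studies 2 and 1, their difference and the changes to day 105 in captured cells and whole sections. The 3′ to 5′ covariate gave 20 (1 and 19) between studies and 6 for day 105 in captured cells. Letters in the titles taken as separate specimens gave 4 for day 105 and 19 for any day in captured cells of study 2. Fitting only the study in question gave 35 (28 and 7) for the tissue difference of study 1, 2 for its day 46, 1 for any day in its captured cells, and 1 each for day 105 and any day in captured cells of study 2. Without the array apart, added after seeing the data, the counts were 33 (26 and 7) for the tissue difference of study 1, 20 between studies, 5 and 23 for day 105 in captured cells and whole sections, 1 for day 46, 26 for any day in whole sections of study 2 and 1 for any day in captured cells of study 1. With the covariate added they were 4 and 12 for the tissue differences of studies 2 and 1, 20 for day 105 in whole sections, 1 for day 46, 2 and 26 for any day in captured cells and whole sections of study 2, and 1 for any day in captured cells of study 1. Dates in the titles of 24 arrays as a block gave 10 for any day in captured cells of study 1. That fit used single arrays in place of specimen averages, so arrays of the same code counted separately. The date block and the change of unit cannot be told apart there. Leaving out 1 specimen at a time gave 22 to 33 and 14 to 32 for the tissue differences of studies 2 and 1, 8 to 19 between studies, 1 to 5 and 8 to 22 for day 105 in captured cells and whole sections, 0 to 1 for day 46, 1 to 34 and 11 to 26 for any day in captured cells and whole sections of study 2, and 0 to 1 for any day in captured cells of study 1. The lowest of these came without specimen 1 of day 7 (tissue difference of study 2, day 105 in captured cells), specimen 2 of day 7 (day 105 in whole sections), specimen 2 of day 105 (any day) and code 3 of day 7 of study 1 (its tissue difference and that between studies), and the highest mostly without specimen 2 of day 49.

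Single genes turned their sign as follows, and the cause was not tested. As deposited, the tissue difference of study 2 was −0.31 in Rrbp1, −0.62 in Dnajc3, −0.15 in Rpn1, −0.45 in Srp14, −0.50 in Hspa5, −1.03 in Atf4, −1.11 in Atf6 and −1.34 in Ddit3, that of study 1 was −0.08 in Atf4, −0.66 in Atf6, −0.65 in Ddit3, −0.52 in Ern1 and −0.05 in Eif2ak3, and that between studies was 0 in Kdelr2, −0.30 in Derl2 and −0.36 in Kdelr1. Own-median centring gave 0.26 in Pdia6, 0.42 in P4hb, 0.80 in Hsp90b1 and 0.15 in Eif2ak3 in study 2, and 0.26 in P4hb and 0.58 in Hsp90b1 in study 1. The mean of all probe sets gave 0.15 in Hsp90b1 and 0.63 in Eif2ak3 in study 2. Hsp90b1 in study 1 was 0.03 with the fixed replicate block, 0.04 without the last day and −0.18 to 0.01 without 1 specimen. The covariate gave −0.36 in Sec61b, −0.96 in Dnajc3, −1.09 in Rpn1 and −0.89 in Hspa5 in study 2, −0.34 in Hspa5 and −0.07 in Eif2ak3 in study 1, and −0.05 in Kdelr1 between studies. Without the array and with the covariate, study 2 had 0.17 in Pdia3 and −0.06 in Ddit3, and study 1 −0.01 in Atf6 and −0.08 in Ddit3. None of the genes turned by the covariate alone was turned in that fit. Leaving out 1 specimen at a time moved Atf6 in study 1 between −0.01 and 0.19 and Hspa5 in study 2 between −0.01 and 0.22. Without the filter on low values none of the 63 results changed its call.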

Other observations

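Genes of the same pathways outside the 54 were read from lists chosen with earlier results known. Of 17 further degradation genes, 7 rose and 0 fell in whole sections between days 105 and 7 of study 2, and 2 rose and 0 fell in captured cells, beside 7.9% and 11.2% of all genes in whole sections and 2.67% and 2.08% in captured cells. Nploc4, a cofactor of the segregase p97, rose by 1.73 in whole sections (limma adjusted p = 0.000196), and Erlec1, a lectin of the ligase complex, by 1.51 there and by 1.61 in captured cells (limma adjusted p = 0.00148). Man1b1, a mannosidase, rose by 1.52 in whole sections and Aup1, a lipid droplet protein of the same complex, by 0.97 in captured cells. Of 19 further folding and oxidation genes 4 rose and 2 fell in whole sections, with Ero1b, an oxidase that recharges the isomerases, at 1.77 and Fkbp7 at −1.77. Of 23 further regulators 2 rose there, Wfs1 by 1.19 and Xbp1 by 0.79, and Atf6b rose by 1.30 in captured cells. Of 23 further translocation and glycosylation genes 6 rose and 1 fell, with Srprb and Sec63 at 1.09 each and Tusc3 at −1.66, and of 33 further vesicle genes 5 rose and 1 fell, with Arfgap3 at 1.29.

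Between captured cells and whole sections the same lists were mixed, beside 34.5% of all genes higher and 35.3% lower in study 2 and 31.5% and 29% in study 1. Further degradation genes gave 6 higher and 7 lower in study 2 (Rnf5 −1.82, Vcp −1.14, Edem3 1.06) and 6 higher and 1 lower in study 1 (Ubxn4 0.96, Ube2j2 0.91, Aup1 0.89). Further regulators gave 10 and 7 in study 2 (Wfs1 −1.45, Nfe2l2 −1.05, Bbc3 0.96) and 6 and 7 in study 1 (Bbc3 1.57, Vldlr −1.56, Nfe2l2 −1.46). Folding and oxidation genes gave 3 and 6 (P4ha1 −1.61) and 2 and 3 (Fkbp7 −1.31, Serp1 1.04). Translocation and glycosylation genes gave 5 and 9 (Uggt1 1.56, Srp19 1.52, Dpagt1 −1.31) and 7 and 3 (Sec61a2 −1.26, Ostc 0.94). Vesicle genes gave 5 and 15 (Sar1a −1.39, Stx5a 1.26) and 8 and 10 (Preb 1.01, Copz1 −0.97).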
